A study of Rattus norvegicus with 10 samples.

Results

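The 10 arrays of the series, each with RNA from postnatal day 6 rat testis, lay on 2 glass slides, and the arrays of slide 1 were compared with those of slide 2. The slide was read from the header of each scanner file, which put 5 arrays on each slide, so all 10 arrays of the series took part. The pups were sons of Brown Norway males mated to Sprague Dawley females. Their sires had been given saline or BEP over 9 weeks and had then recovered for 9 weeks. BEP commonly stands for bleomycin, etoposide and cisplatin, but the labels give only the abbreviation. Each array carries a sire code with the letter C or T. No label says which letter stands for which treatment, and the reading of C as saline and T as BEP is an inference. The labels do not say whether an array holds 1 pup or a pool, so p-values measure the spread between these 10 arrays.

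Slide 1 held the sire codes 3C1R, 4C1R, 5C1R, 2T1R and 4T1R, and slide 2 held 6C1R, 2C2R, 6T1R, 7T2R and 8T2R. C arrays were thus 3 of 5 on slide 1 and 2 of 5 on slide 2, and the C or T letter entered the main fit beside the slide. The digit after the letter, whose meaning the labels do not give, was 1 on all 5 arrays of slide 1 and on 6C1R and 6T1R of slide 2, and 2 on 2C2R, 7T2R and 8T2R. Slide and sire digit were therefore only partly separable. Both slides used the same 5 positions. The RNA samples also differed between the slides, since no sire was hybridised on both. A difference between the slides and a difference between the sires that happened to lie on them cannot be told apart.

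The testis on postnatal day 6 is made of cords of Sertoli cells, which divide and secrete anti-Müllerian hormone, around gonocytes that are turning into spermatogonia. Peritubular myoid cells wrap the cords, and fetal-type Leydig cells, vessels and macrophages lie between them. In a one-colour array experiment each RNA is amplified, labelled with Cy3 and hybridised alone to its array. Several arrays are printed on 1 slide and share its hybridisation, washing and scan, which is why the slide is commonly entered as a batch. Probes on such arrays are short and can bind related transcripts, above all where a gene has close family members or processed pseudogenes. Spike-in RNAs of known amount, added at labelling, give a level that does not come from the tissue.

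All values are log2 of the scanner's processed signal minus the 75th percentile of the array, so 0 lies at that percentile, and a difference is always slide 2 minus slide 1. A probe was called when its limma p, adjusted by Benjamini-Hochberg over all probes tested, was under 0.05. Of 21892 tested probes, 2143 (9.79%) were called, 253 higher and 1890 lower on slide 2. At an unadjusted p under 0.05 there were 5279. The direction of the calls leaned to slide 1, with 8.63% of the tested probes called lower and 1.16% called higher on slide 2. The split moved with the scaling: 11.8% of calls were higher on slide 2 in the main setting, against 24.0% with median scaling, 22.4% with cyclic loess, 30.4% with quantile normalization and 22.7% in the authors' deposited values. Scaling to the spike-ins turned it to 90.8%, with 665 higher and 67 lower of 732 calls. The median difference over all tested probes was -0.03 in the main setting, 0.13 without scaling and 0.52 with spike-in scaling. Through the settings 49 of the called genes named here were followed, and the others were not. Of these 49, 21 that were lower on slide 2 came out above 0 with spike-in scaling. All 49 kept their direction in each other setting that tested them. That was partly fixed in advance, since they were picked as called. Where the slides did not overlap, a fit on fewer of the arrays could not turn the direction. Because the split moved with the scaling, differences are given relative to the bulk of the probes on the same array.

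Most called differences were of modest size. The median was 0.50 among the probes lower on slide 2, a 1.41-fold difference, and 0.37 among those higher, a 1.29-fold difference. At least 2-fold differences were found for 233 called probes lower and 5 higher on slide 2. Within a slide the median standard deviation of a probe was 0.14 on slide 1 and 0.13 on slide 2. All arrays of one slide lay above all arrays of the other for 2468 probes (11.3%). Only 5 tested probes were well above background on all 5 arrays of slide 1 and none of slide 2, and 8 the other way round.

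The arrays separated by slide on the first principal component, which held 35.7% of the variance. On slide 1 the component was -30.1 for 3C1R, -25.0 for 2T1R, -18.5 for 4T1R, -17.6 for 4C1R and -8.17 for 5C1R. On slide 2 it was 7.70 for 6C1R, 17.7 for 6T1R, 22.8 for 8T2R, 24.6 for 2C2R and 26.4 for 7T2R. The slides did not overlap, while the C and T arrays did. Arrays of 1 slide correlated at 0.994 to 0.996 over the tested probes on slide 1 and at 0.994 to 0.997 on slide 2, against 0.990 to 0.994 between slides. The spike-in level relative to the 75th percentile also varied within both slides. It was -0.95 in 3C1R, -1.24 in 2T1R, -1.61 in 4T1R, -1.17 in 4C1R and -2.06 in 5C1R on slide 1. On slide 2 it was -1.43 in 6C1R, -1.78 in 6T1R, -2.40 in 8T2R, -2.07 in 2C2R and -2.30 in 7T2R. Within a slide, arrays further to the right mostly had lower spike-ins. The exceptions were 4C1R, which lay above 2T1R and 4T1R, and 8T2R, which was the lowest of slide 2. The slides overlapped in this measure. Its part in the slide difference was not tested beyond a fit with the spike-in level as a term. That fit left 1078 slide calls, 964 of them shared with the main 2143 in the same direction. The spike-in term itself called 172 probes in limma, 166 rising and 6 falling with the spike-in level. For this term 4714 probes had an unadjusted p under 0.05.

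**Figure D1:**
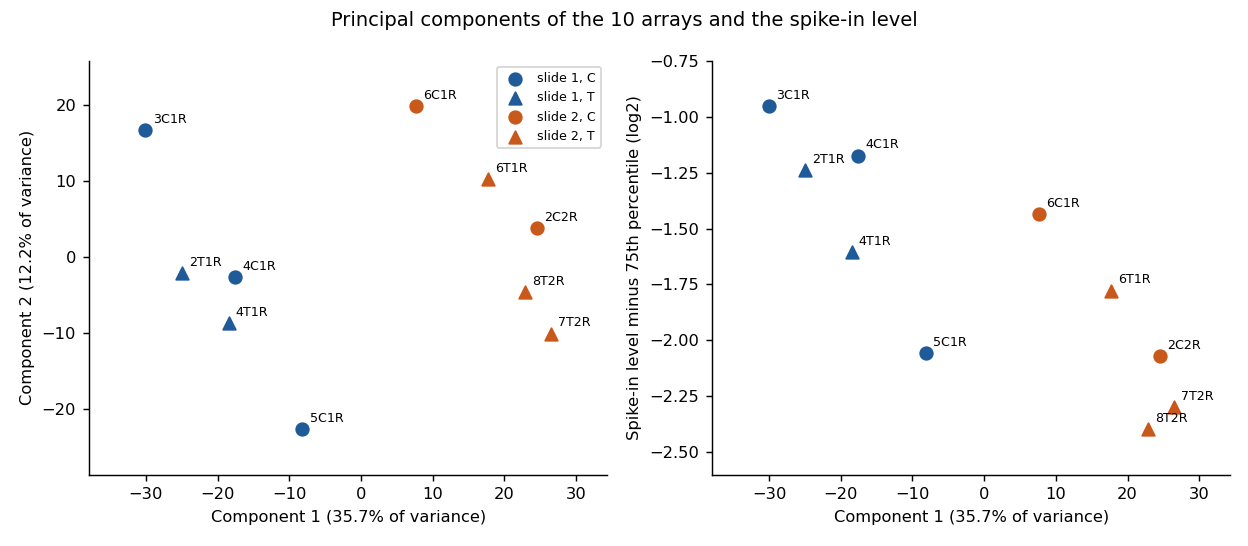
The 10 arrays by principal component 1 (both panels, horizontal axis), component 2 (left) and spike-in level minus the 75th percentile of the array in log2 units (right); colour marks the slide and shape the C or T letter. Slide 1 arrays lie from -30.1 to -8.17 and slide 2 arrays from 7.70 to 26.4 on component 1, and the spike-in level is mostly lower to the right within a slide, apart from 4C1R and 8T2R.

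The slide difference was found separately in the C and in the T arrays, which share no array. In the C arrays alone 336 probes (1.53%) were called, and in the T arrays alone 1092 (4.99%). Of these, 273 were called in both in the same direction and 0 in opposite directions, which is 81.2% of the C calls and 25.0% of the T calls. The C calls had the same sign in the T arrays for 327 of 336 probes, against 66.8% of all tested probes. Over the 21892 probes the 2 sets of differences correlated at r = 0.61, a description across probes that are not independent. The test of whether the slide difference itself differed between C and T called 0 of 21892 probes in limma with an interaction term, and 690 had an unadjusted p under 0.05. The C against T comparison with the slide in the fit also called 0 probes, with 1016 at an unadjusted p under 0.05. With the sire digit as a further term 782 slide calls were left, 28 higher and 754 lower on slide 2, and the digit itself called 0 with 1318 at an unadjusted p under 0.05. With only the 7 arrays of digit 1 there were 528 slide calls, of which 518 were also among the main calls in the same direction.

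Calls were spread unevenly over the probes, by the kind of transcript a probe was made for. Probes made for curated RefSeq transcripts (NM accessions) were called in 748 of 14481 cases (5.17%), with 157 higher and 591 lower on slide 2. Probes for predicted RefSeq transcripts were called in 14.8% of 1490, and probes for Ensembl transcripts in 13.4% of 2734. The highest share, 29.0%, was among the 2523 probes whose file entry holds no accession beyond the probe's own name. Of their 732 calls, 718 were lower on slide 2, and 81.2% of all such probes had a difference below 0, with a median of -0.20. The median was -0.01 for curated RefSeq probes. Put together by symbol, probes without a current gene symbol made up 37.5% of the tested probes and 67.2% of the calls. These shares describe the calls and were not tested, and the order of the no-accession and curated RefSeq probes held in each of the 31 other settings of the slide fit that tested both.

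The difference between named and unnamed probes was present at every level of signal, with probes cut into 10 equal bins by mean signal (deciles). In the dimmest decile of probes 9.49% of those without a symbol were called, against 3.74% of those with one. In the fifth decile the shares were 21.8% and 5.48%, and in the ninth 23.1% and 2.73%. In the brightest decile 13.9% of unnamed and 2.92% of named probes were called. Calls also followed the number of spots printed for a probe: 15.6% of 8887 single-spot probes, 6.27% of 11745 probes with 2 spots and 1.59% of 1260 probes with 10 spots. Spot number and annotation go together on this design and were not separated here.

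**Figure D2:**
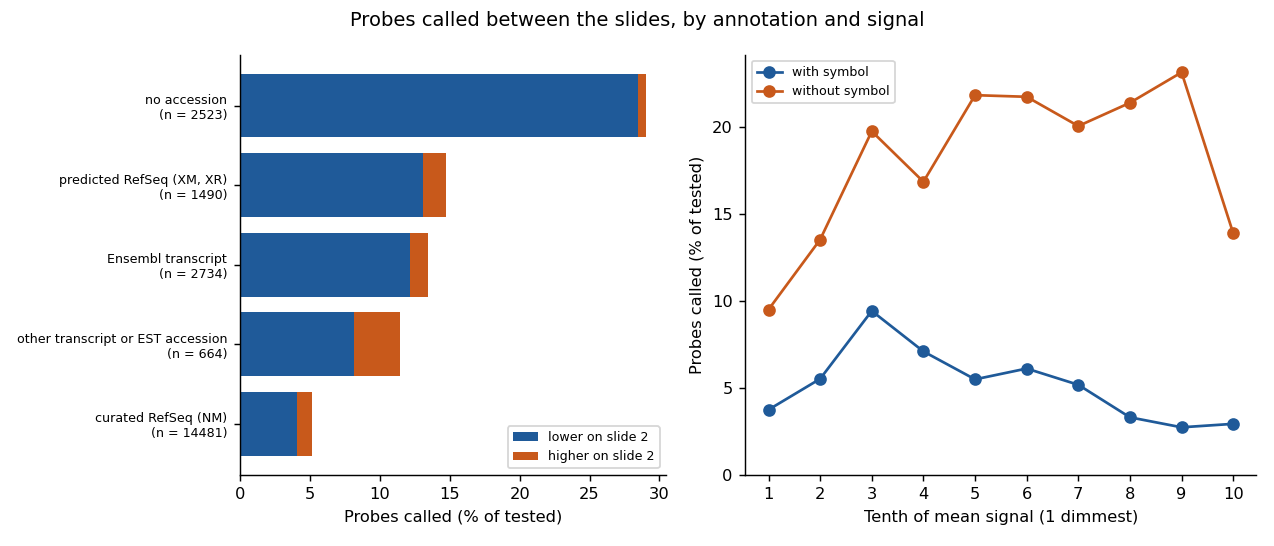
Left, percent of tested probes called between the slides, by the accession that the scanner files give for the probe, with calls lower and higher on slide 2 stacked. Right, percent called in each decile of mean signal for probes with and without a gene symbol; unnamed probes were called more often in every decile, from 9.49% against 3.74% in the dimmest to 13.9% against 2.92% in the brightest.

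An unnamed probe serves as an example. The probe A_64_P027457, which has no accession, was well above background on all 10 arrays. It read -2.99, -3.07, -3.05, -2.60 and -3.03 on 3C1R, 4C1R, 5C1R, 2T1R and 4T1R, and -4.95, -5.23, -5.18, -5.21 and -5.12 on 6C1R, 2C2R, 6T1R, 7T2R and 8T2R. The slides lay far apart, with a difference of -2.20 ± 0.10 (SE, n = 5 and 5 arrays; limma adjusted p = 3.16e-06). Among unnamed probes above background everywhere it had the lowest difference.

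Of the probes with a symbol, 1 probe per gene (the one with the highest mean) stood for each of 11561 genes. Of these genes 621 (5.37%) were called, 122 higher (1.06%) and 499 lower (4.32%) on slide 2, with a median difference of -0.01. The genes named next are those with the largest differences among 496 called genes whose slides did not overlap and that were well above background on at least 8 arrays. Each of these 20 genes was represented by 1 tested probe. Since they were picked for their slide difference, their values describe it.

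The gene with the lowest difference was Acta1, the alpha-actin of skeletal muscle fibres. It read -2.11, -2.35, -2.55, -2.04 and -2.39 on 3C1R, 4C1R, 5C1R, 2T1R and 4T1R, and -3.46, -3.82, -3.65, -3.78 and -3.90 on 6C1R, 2C2R, 6T1R, 7T2R and 8T2R. All slide 2 arrays lay below all slide 1 arrays, a 2.71-fold difference (-1.44 ± 0.12 SE, limma adjusted p = 4.97e-05). Of 25 measured skeletal muscle markers 4 were called, Acta1 included, all lower on slide 2 (16%, against 4.32% of all genes called lower), and the median of the 25 was 0.04. The others called were Mb (myoglobin, -0.49 ± 0.06), Chrna1 (the alpha subunit of the muscle acetylcholine receptor, -0.30 ± 0.07) and Myf5, an early myogenic factor. Myh3, the embryonic myosin heavy chain of muscle, differed by 0.04 ± 0.12 (adjusted p = 0.883).

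Several of the other genes with low values on slide 2 are relatives of abundant genes. Ptmal1, a gene named for its likeness to prothymosin alpha, read -3.71, -4.09, -3.99, -3.66 and -3.95 on slide 1 and -5.08, -5.36, -4.98, -5.44 and -5.20 on slide 2, in the order of arrays given above. The difference was -1.35 ± 0.12 (limma adjusted p = 6.59e-05), while Ptma, prothymosin alpha itself, differed by -0.17 ± 0.07 (adjusted p = 0.184). Tubal3, an alpha-tubulin-like gene, differed by -1.29 ± 0.14 (adjusted p = 0.000236), with slide 1 at -1.53 to -1.12 and slide 2 at -2.91 to -2.17. The probes of the alpha-tubulin genes Tuba1a, Tuba1b and Tuba1c differed by -0.31 to -0.11, and 0 of the 5 passed the threshold; a Tuba1b probe was flagged on 8T2R and fitted without that array.

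Pbp2, a testis relative of the phosphatidylethanolamine-binding protein Pebp1, read -2.93, -3.06, -2.98, -2.73 and -2.97 on slide 1 and -3.94, -4.19, -3.94, -4.13 and -4.05 on slide 2. This is a difference of -1.13 ± 0.08 (limma adjusted p = 1.47e-05), against -0.04 ± 0.09 for Pebp1 (adjusted p = 0.810). Ppp1r14bl, named for likeness to the phosphatase inhibitor Ppp1r14b, was lower by -0.97 ± 0.07 (adjusted p = 2.69e-05), against 0.07 ± 0.06 for Ppp1r14b (adjusted p = 0.510). Gapdh-ps1, a pseudogene of the glycolytic enzyme Gapdh, read -0.41, -0.60, -0.32, -0.16 and -0.45 on slide 1 and -1.31, -1.57, -1.41, -1.03 and -1.25 on slide 2. It differed by -0.96 ± 0.10 (adjusted p = 0.000236), and the 3 probes of Gapdh by -0.13 to -0.03 with 0 called.

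These pairs were noticed after the values were seen. Taking all genes whose symbol is formed by adding "-ps" or "l" to that of another tested gene gave 226 pairs, in which 17 of the added genes were called (7.52%, near the 5.37% of all genes), 12 of them lower on slide 2. The gene they are named after was called in 10. Where that gene lay in the brightest decile of probes, 6 of 41 added genes were called (14.6%, against 5.37% of all genes). All 6 were lower on slide 2, and 1 of the genes that the 41 are named after was called. Of the 6, Ptmal1, Gapdh-ps1, Fbll1 and Cox6c-ps1 were themselves picked after their values were seen, so the count is no separate support for the pattern. The others were Ptges3l1 at -0.38, against -0.03 for Ptges3, and Rpl36al1 at -0.23. The difference of Rpl36a itself was lower still, at -0.29, and was not called. Fbll1 differed by -0.88 and Fbl, the nucleolar methyltransferase fibrillarin, by -0.10. Cox6c-ps1 had 2 probes, at -0.57 and -1.13, and Cox6c, a subunit of cytochrome oxidase, differed by 0.02. Within the actins, Actc1 of heart muscle differed by -0.38 ± 0.08 (limma adjusted p = 0.017) and Acta2 of smooth muscle by -0.36 ± 0.10 (adjusted p = 0.0479), while the cytoplasmic actin Actb differed by -0.14 ± 0.09 (adjusted p = 0.431). The probes of the cytoplasmic actin Actg1 differed by -0.12 and -0.09 and those of Actg2, of smooth muscle, both by 0.04, with 0 called. Whether the probes of the pairs bind each other's transcripts was not tested, since the files used here hold no probe sequences.

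Other genes among the 10 lowest are not close relatives of the former. Slc24a1, a sodium, potassium and calcium exchanger known from rod photoreceptors, differed by -1.10 ± 0.14. Gnal, the G protein alpha subunit of olfactory neurons, read -0.56, -0.78, -0.54, -0.73 and -0.62 on slide 1 and -1.57, -1.73, -1.87, -1.66 and -1.43 on slide 2, a 2.00-fold difference (limma adjusted p = 9.02e-05). Snx15, a sorting nexin of endosomes, and Dlx3, a homeobox transcription factor, each differed by -0.98, with standard errors of 0.16 and 0.11. With normexp background correction Ptmal1, Slc24a1 and Snx15 differed by -0.84, -0.52 and -0.39 and stayed called. Since the 10 lowest genes were chosen without overlap, the sign in the C or the T arrays alone was fixed in advance. Their differences ran from -1.33 to -0.74 in the C arrays and from -1.56 to -0.92 in the T arrays. All 10 stayed called when the spike-in level was added to the fit. With the sire digit as a term instead, Snx15 was not called (-0.82, limma adjusted p = 0.0799), and the others stayed called.

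The genes higher on slide 2 differed less, and most were dim. Fam227a, a gene with no role that can be stated with confidence, read -6.46, -6.32, -5.87, -6.18 and -6.10 on slide 1 and -5.33, -4.47, -5.60, -4.20 and -5.16 on slide 2. The slide 2 arrays spread over more than 1 unit but all lay above slide 1, a difference of 1.24 ± 0.27 (limma adjusted p = 0.0159), or 0.47 with normexp background correction. Dmc1, the recombinase that pairs homologous chromosomes in meiosis, differed by 0.75 ± 0.15 (adjusted p = 0.0116), with slide 1 at -6.50 to -6.18 and slide 2 at -5.92 to -5.10. Its signal lay in the dimmest decile of probes, and normexp background correction gave 0.18, which was not called. Tssk3, a testis-specific kinase of spermatids, Gad1, which makes the transmitter GABA, and Scn3a, a neuronal sodium channel, were in the same decile and differed by 0.57, 0.59 and 0.57. With normexp background correction these were 0.12, 0.12 and 0.01, with 0 called.

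Brighter genes higher on slide 2 were Dhrsx, Ikbke and Col7a1. Dhrsx, a dehydrogenase, read -3.61, -3.68, -3.84, -3.74 and -3.50 on slide 1 and -3.30, -2.69, -3.05, -2.79 and -2.89 on slide 2, a difference of 0.71 ± 0.12 (limma adjusted p = 0.00399). Ikbke, a kinase of innate immune signalling, differed by 0.58 ± 0.11 (adjusted p = 0.00704), and Col7a1, the collagen of anchoring fibrils, by 0.56 ± 0.12 (adjusted p = 0.0159). Abcg3l3, an ABC transporter gene, differed by 0.75 ± 0.18, with 1.06 in the C and 0.44 in the T arrays. Wfdc3, a WAP-domain protein, differed by 0.59 ± 0.11. With normexp background correction Abcg3l3 and Wfdc3 differed by 0.28 and 0.18 and were not called. With the spike-in level in the fit 3 of the 10 genes higher on slide 2, Gad1, Dhrsx and Col7a1, stayed called. With the sire digit as a term instead, only Dmc1 of the 10 stayed called (0.96, limma adjusted p = 0.0196).

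**Figure D3:**
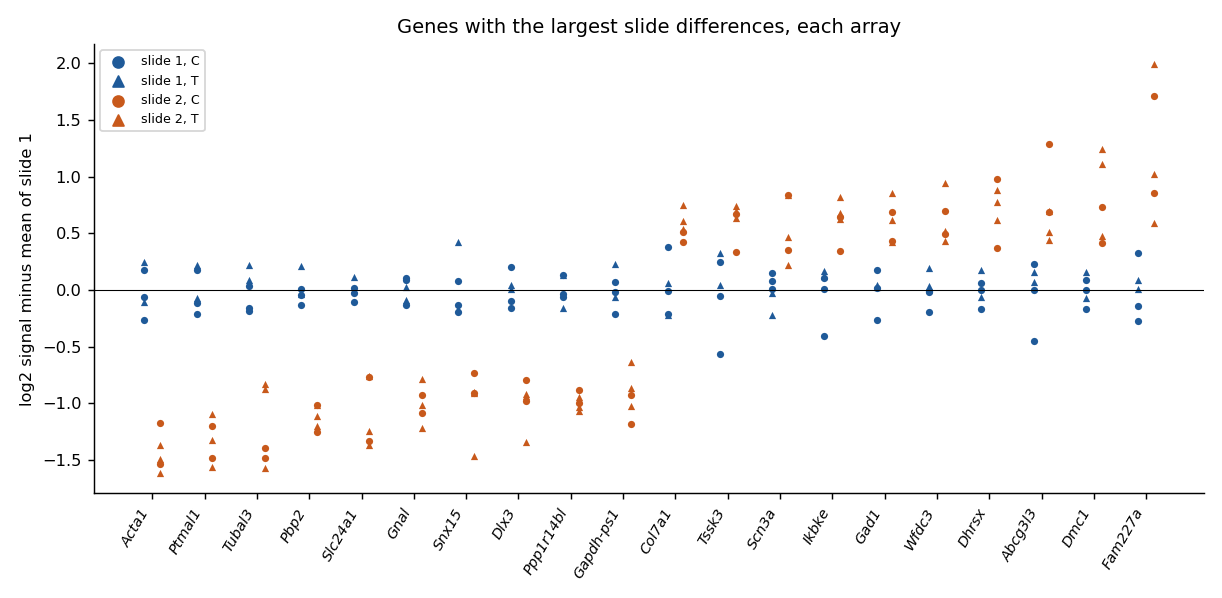
Each array's log2 signal minus the mean of the slide 1 arrays for the 10 genes lowest and the 10 genes highest on slide 2; colour marks the slide and shape the C or T letter. In each gene the slides do not overlap, as the choice of genes required, and the differences run from -1.44 for Acta1 to 1.24 for Fam227a.

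Genes with several probes allowed the difference to be read from a second probe. Among 1941 such genes, 167 had a called probe, and in 156 of them another tested probe of the same gene was not called. Of the 207 readings of a second probe beside a called one, 26 were called in the same direction, 2 in the opposite direction and 136 (65.7%) had the same sign. A pair with both probes called is counted from each side, so the 2 opposite readings are the pair of Btnl5. Of all tested probes of the 1941 genes, 4.44% were called. The called probes differed by a median of 0.42 in size, and the other probes of their genes by 0.08 in that direction. Since the first probe was picked for passing the threshold, part of this drop is built in by the choice. Over the 1794 genes with exactly 2 probes the differences correlated at r = 0.26, again only a description across genes. Hnrnpa3, an RNA-binding protein, is an example: 1 of its probes differed by -0.83 ± 0.12 (limma adjusted p = 0.002) and the other 3 by -0.13, -0.08 and 0.01, with 0 of those called.

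In 11 genes all tested probes were called. The 3 probes of Polr2h, a subunit shared by the RNA polymerases, were higher on slide 2 by 0.51, 0.45 and 0.47. The 2 probes of Rgcc, a regulator of the cell cycle, were lower by -0.75 and -0.56. Both probes of Sfrp5, a secreted inhibitor of Wnt signalling, were lower at -0.62 and -1.07, and both of Eif3h, a subunit of translation initiation factor 3, at -0.27. Gria3, a glutamate receptor subunit, was higher by 0.37 and 0.40, and Pear1, a receptor of platelets and endothelium, by 0.30 and 0.24. The probes of Btnl5 were called in opposite directions, at 0.67 and -0.52. The others were Atcay, Cox6c-ps1, Mmp15 and Rps4y2, with all probes lower on slide 2. These genes were named because their probes were all called.

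By level of signal, calls were spread over the whole range, from 6.26% in the dimmest decile of probes to 13.6% in the third and 8.40% in the brightest. In the brightest decile 183 of 184 calls were lower on slide 2, 81.8% of the probes had a difference below 0, and the median was -0.10. In the middle deciles, from the fourth to the eighth, between 50.4% and 54.2% of the probes lay below 0. The shift of the brightest decile turned with the scaling, to 0.01 with cyclic loess, 0.02 with quantile normalization, 0.06 without scaling and 0.45 with spike-in scaling, so it describes the main scaling only.

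**Figure D4:**
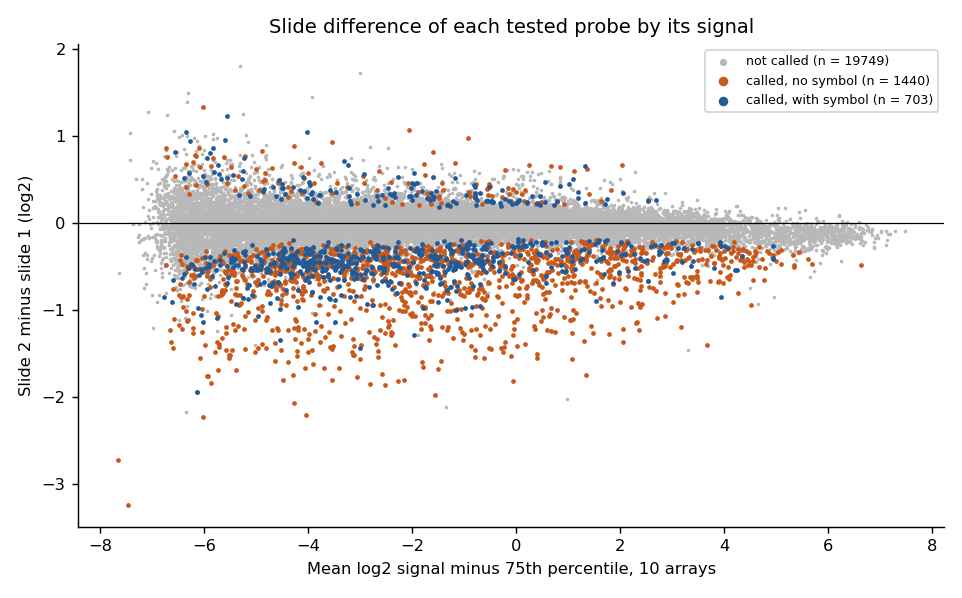
Slide 2 minus slide 1 difference of each of the 21892 tested probes (log2) against its mean log2 signal over 10 arrays, with the 703 called probes with a symbol and the 1440 called probes without one in colour. Calls lie mostly below 0 at all signal levels, and unnamed probes make up most of the large differences.

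By function, the calls were scattered over the lists, with at most 7 in any list. The 14 lists of cell type markers held 275 measured genes, of which 4 were called higher and 10 lower on slide 2 (5.09%, against 5.37% of all genes). The 24 process lists held 711 measured genes, of which 1 was called higher and 23 lower (3.38%). In 14 lists with measured genes 0 members were called, and the list of genes encoded by mitochondrial DNA was not assessed, since none of its entries matched a symbol. The labelled tissue was borne out by its markers: Sertoli, Leydig and germ cell genes were measured on all arrays, with Amh at 1.79 to 2.79, Cyp17a1, a steroid-making enzyme of Leydig cells, at 2.02 to 3.30 and Dazl, an RNA-binding protein of germ cells, at -0.06 to 0.36.

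Of 30 measured Sertoli markers 0 were called, and their median was -0.05. Amh, the hormone that makes the Müllerian ducts regress, differed by -0.12 ± 0.16 (limma adjusted p = 0.701). Of 23 Leydig cell markers 1 was called, lower on slide 2. Star, the carrier of cholesterol into mitochondria, differed by -0.16 ± 0.25 (adjusted p = 0.748) and Cyp17a1 by 0.35 ± 0.26 (adjusted p = 0.454), and for both the slides overlapped.

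The 28 germ cell markers had a median of 0.09, and 2 were called in opposite directions. Pou5f1, the pluripotency factor that gonocytes still express, read 0.07, -0.16, -0.16, -0.02 and 0.02 on slide 1 and -0.46, -0.72, -0.61, -0.66 and -0.51 on slide 2. The slides did not overlap, and the difference was -0.55 ± 0.08 (limma adjusted p = 0.00124). Mael, which silences transposons in germ cells, was higher by 0.23 ± 0.05 (adjusted p = 0.0246), with slide 1 at -0.51 to -0.33 and slide 2 at -0.29 to -0.01. Ddx4, the germ cell helicase, and Dazl differed by 0.25 ± 0.14 and 0.11 ± 0.07 and were not called. Among 18 genes of meiosis and spermiogenesis 2 were called (11.1%, against 5.37% of all genes), in opposite directions. Dmc1 was higher, but it was dim and well above background on only 3 arrays of slide 1. Prm1, a protamine, was lower at -0.50 ± 0.12 (limma adjusted p = 0.0307).

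Among the cells between the cords, Acta2 was the 1 called of 19 peritubular markers. Of 15 endothelial markers Sox18, a transcription factor of vessels, was called higher at 0.24 ± 0.06 (limma adjusted p = 0.0428). Of 24 macrophage markers Cd14, the co-receptor for lipopolysaccharide, was called higher, reading -2.13, -2.28, -1.96, -2.17 and -2.13 on slide 1 and -1.60, -1.73, -1.58, -1.89 and -1.57 on slide 2 (0.46 ± 0.09, adjusted p = 0.00745). Cd68, another macrophage marker, differed by -0.19 ± 0.07 and was not called (adjusted p = 0.114). Cd3d of T cells was called lower (-0.45 ± 0.08), as was Th, the tyrosine hydroxylase of sympathetic nerves (-0.54 ± 0.09). Of markers of tissues that could be carried along at dissection, the calls were 0 of 17 for fat, 0 of 22 for duct epithelium and 0 of 14 for erythroid cells, and 4 of 25 (16%) for skeletal muscle, against 5.37% of all genes. However, 13 of the 25 muscle markers lay above 0, with a median of 0.04. Erythroid genes had a median of -0.18 (0.36 with spike-in scaling), with 13 of 14 below 0, and Hbb, beta-globin, differed by -0.28 ± 0.15 (adjusted p = 0.309).

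The lists of genes that respond to handling, stress or time of day held from 0 to 2 calls each. Of 39 immediate early genes 1 was called, Socs3, an inhibitor of cytokine signalling, which was lower by -0.47 ± 0.06 (limma adjusted p = 0.000829). Fos ran from -6.19 to -4.12 on slide 1 and from -6.30 to -4.97 on slide 2, so the slides overlapped, and Jun differed by -0.44 ± 0.19 (adjusted p = 0.191). Of 27 heat shock genes, 30 interferon genes and 7 cold-inducible genes 0 were called. Of 24 hypoxia genes Car9, a carbonic anhydrase, was called lower (-0.37 ± 0.05), and Vegfa was not (0.27 ± 0.11, adjusted p = 0.182). Of 22 glucocorticoid-responsive genes and of 20 p53 targets the 1 called was Cdkn1a in both, the cell cycle inhibitor p21, at -0.54 ± 0.12 (adjusted p = 0.0231). Its slides overlapped, with 4.18 to 4.75 on slide 1 and 3.79 to 4.23 on slide 2, and its other probe differed by 0.15 ± 0.10 (adjusted p = 0.442). Of 18 clock genes Usp2 and Npas2 were called lower (11.1%, against 4.32% of all genes). The other probe of Npas2 differed in the opposite direction, by 0.39 ± 0.17, and was not called (limma adjusted p = 0.193). Dbp and Nr1d1, strongly rhythmic output and repressor genes, were not called at 0.08 ± 0.07 and 0.18 ± 0.09. Ptgs2, the inducible cyclooxygenase, was the 1 called of 16 acute inflammation genes at 0.82 ± 0.17 (adjusted p = 0.0114), but it was well above background on 7 arrays, its slides overlapped, and normexp background correction gave 0.059 with no call.

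Housekeeping machinery showed small shifts to slide 1 in the main scaling. The median of 75 cytosolic ribosomal protein genes was -0.12, with 74 below 0 and 2 called, Rpl7a (-0.40 ± 0.11) and Rpsa (-0.38 ± 0.10; its other probe -0.09, not called). With quantile normalization and cyclic loess the same median was 0.01 and 0.03, without scaling 0.03 and with spike-in scaling 0.43, so the direction of this family depends on the scaling. Among 68 nuclear genes of the respiratory chain, 7 were called, all lower on slide 2 (10.3%, against 4.32% of all genes called lower), and the median of -0.10 became 0.01 with quantile normalization, -0.02 with cyclic loess, 0.05 without scaling and 0.44 with spike-in scaling. Cox7c, a small subunit of cytochrome oxidase, stood out: it read 1.97, 1.88, 1.94, 2.20 and 1.92 on slide 1 and 1.32, 1.08, 1.26, 1.05 and 0.71 on slide 2 (-0.89 ± 0.12, limma adjusted p = 0.00105). Sdhc, Cox7a2, Atp5po, Ndufab1 and Atp5pd, also subunits of the chain and of ATP synthase, were called at -0.27 to -0.22. The other probe of Ndufab1 differed in the opposite direction, by 0.51, and that of Cox7a2 by -0.08, and neither was called. Among 65 mitochondrial ribosomal genes Mrps15 (-0.64 ± 0.12), Mrps34 (-0.20 ± 0.05) and Mrpl21 (-0.19 ± 0.05) were called lower.

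The replication-dependent histones had the lowest list median, -0.23 over 18 genes with 16 below 0 and 0 called. It stayed below 0 with each scaling except spike-in scaling, where it was 0.32. Of 34 genes of DNA replication and mitosis, 1 was called, Plk1, the mitotic kinase (-0.25 ± 0.06). Of 35 translation factors Eif3h was called, of 20 glycolytic enzymes Eno2 (-0.49 ± 0.12), of 28 chaperone and unfolded protein genes Sec61b (-0.26 ± 0.06), and of 41 antioxidant genes the glutathione transferases Gstm3 (-0.85 ± 0.14) and Gstm4 (-0.38 ± 0.08). With normexp background correction Gstm3 differed by -0.32 and was not called, nor was Sox18 at 0.10, and the other probe of Gstm4 differed by 0.06 and was not called. Splicing factors (41 genes), proteasome subunits (37), cholesterol synthesis (29), MHC genes (22) and 19 reference genes had 0 calls each. The reference genes Hprt1 and Ppia differed by 0.05 ± 0.05 and -0.06 ± 0.11. Those of smallest p were Gusb (0.21 ± 0.06, limma adjusted p = 0.0518), Pgk1 (-0.16 ± 0.06) and Eef1a1 (-0.26 ± 0.10). For Gusb and Pgk1 the slides did not overlap. In a panel of 40 marker and reference genes 34 were measured and 2 were called, Acta1 and Acta2.

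**Figure D5:**
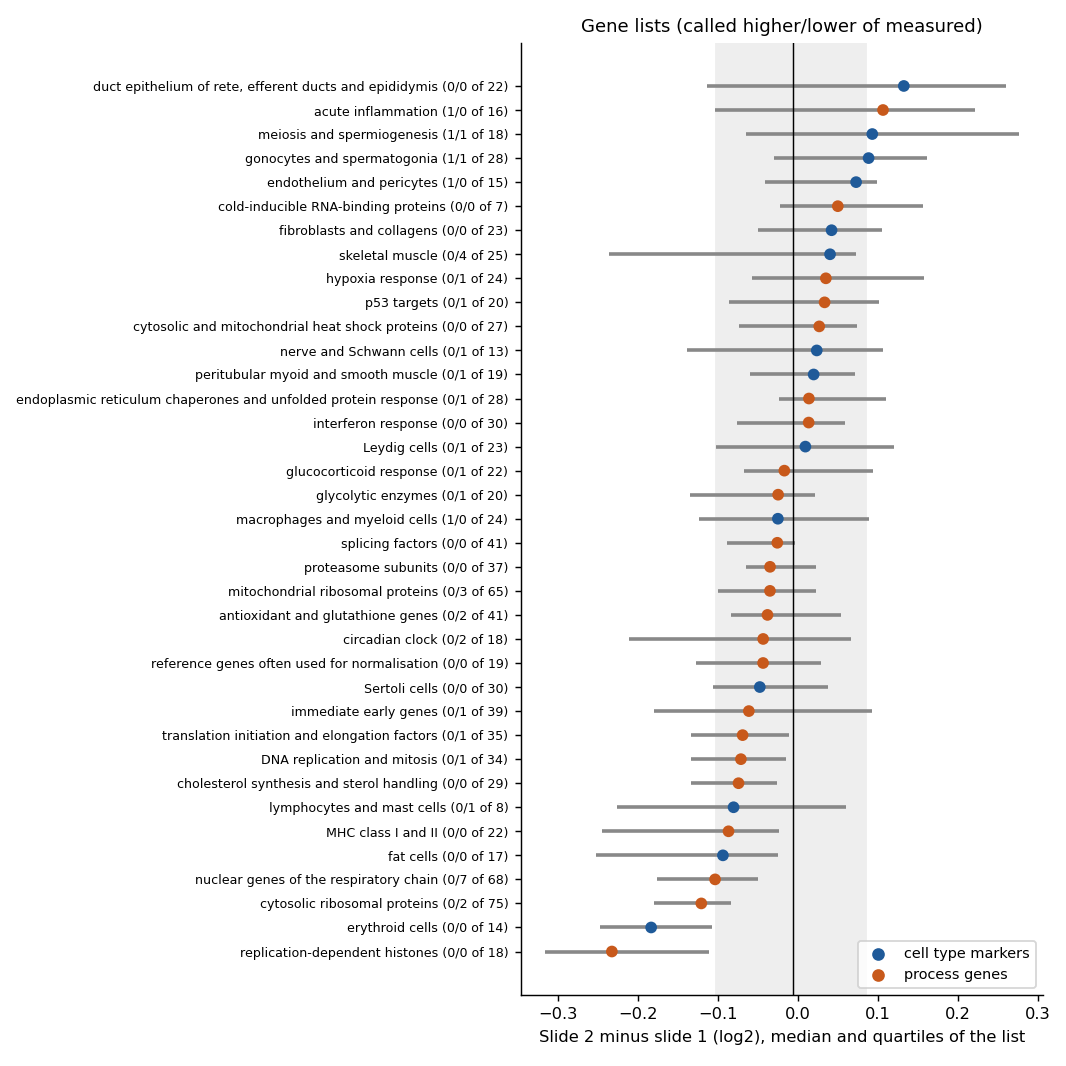
Median (point) and quartiles (line) of the slide 2 minus slide 1 difference in log2 units for each gene list, with called higher and lower counts of measured genes beside its name; the vertical line and grey band are the median and quartiles of all 11561 genes. List medians run from -0.23 for replication-dependent histones to 0.13 for duct epithelium in the main scaling, and those of ribosomal and respiratory chain genes lie near 0 with quantile normalization or cyclic loess.

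The slides were also compared in measures with 1 value per array, by exact permutation of the slide within the C and within the T arrays, for which the smallest p is 0.01. Of 11 measures, 0 passed after adjustment, and with this smallest p a lone measure cannot fall below 0.11 when adjusted over 11. The share of spots well above background was 74.2% to 75.9% on slide 1 and 75.9% to 77.9% on slide 2 with no overlap between the slides, with p = 0.01 and an adjusted p of 0.11 (exact, two-sided). The spike-in level relative to the 75th percentile was lower on slide 2 by a mean of -0.55 (exact p = 0.08, adjusted 0.247). The 75th percentile itself was 1525 to 2686 units on slide 1 and 1957 to 2536 on slide 2 (exact p = 0.42, adjusted 0.562). The number of spots with outlier flags was 540 to 745 on slide 1 and 494 to 671 on slide 2 (exact p = 0.12, adjusted 0.264), and 0 spots were saturated.

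Of the software's image measures, 2 separated the slides, and they were picked after their values were seen. The pixel variation coefficient within bright spots was 0.109 to 0.116 on slide 1 and 0.103 to 0.107 on slide 2. The header's figure for low pixels rejected was 0.067 to 0.0915 on slide 1 and 0.095 to 0.153 on slide 2. The grid name in the file headers was that of the design on slide 1 and of a separate grid on slide 2. Grid name and slide thus cannot be told apart. The headers mark the grid as optimised on 6T1R and 7T2R only, and not on 6C1R, 2C2R or 8T2R. The position on the slide was also considered, since C arrays lay at the first columns of both slides and T arrays at the last columns and in the second row. With position as a block in place of the letter there were 2395 slide calls, of which 1874 were among the main calls in the same direction.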

How the data were processed

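The members, gene lists and tests were chosen with earlier results of these data known. Total RNA was amplified, labelled with Cy3 and hybridised to one-colour rat arrays, per the labels' protocols. The scanner files the authors deposited hold spot intensities from Agilent Feature Extraction 10.7.3.1 (10.7 per the submitters' processing notes), background-subtracted and detrended but not scaled between arrays, per the file headers. A table of the authors' deposited log2 values, centred per probe, served as an alternative. Its columns correlated with the centred scanner values at 0.998 to 0.999, and its column medians were 0.0291 (3C1R), 0.000252 (4C1R), -0.0167 (5C1R), 0.0203 (6C1R), -0.00906 (2C2R), 0.00327 (2T1R), 0.00382 (4T1R), -0.00273 (6T1R), -0.0171 (7T2R) and -0.00247 (8T2R). Its direction is that of the signal, and its scaling between arrays stays unknown.

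Of 62976 spots, 4259 controls were left out. Log2 processed intensities had the array's 75th percentile subtracted, outlier-flagged spots were set missing, and spots of a probe were averaged. Probes well above background on at least 5 of 10 arrays were tested (21892 of 30367). A RefSeq table gave symbols to 17998 probes by accession. Limma 3.58.1 in R 4.3.3 (lmFit, eBayes) fitted the C or T letter and the slide, with Benjamini-Hochberg adjustment over all probes. The fit was checked on simulated data. The number of arrays limits the precision. Gene lists (38, of whose 1265 entries 1203 matched a symbol) are described by counts and medians with no test.

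Named genes were the 10 with the largest difference in each direction (called, no overlap between slides, above background on at least 8 arrays, no provisional symbol), from each list described the 3 members of smallest p, and a panel of 40. A pair of genes that this rule names is not reported here. Genes chosen after their values were seen are marked so. Alternatives changed the background correction, scaling, filter, flags, variance model, array weights, covariates, source of values, choice of probe and left out each array. No probe coordinates are given.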

Additional observations from a re-analysis of the deposited data

Results flagged for a closer look

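In 126 sets of 5 arrays (49 named genes and 14 array measures, on each slide), 8 held 1 array that lay apart from its slide by a gap of more than 0.71 of the range, and chance gives about 1 such flag in 20 sets. Acta2 of smooth muscle was high in 3C1R on slide 1, at 3.28 against 2.91 in the next array. Cox7c was high in 2T1R on slide 1, at 2.20 against 1.97. Eno2, the neuronal enolase, was low in 5C1R on slide 1, at -2.50 against -2.04. Ikbke was low in 3C1R on slide 1, at -2.69 against -2.27. Mb, myoglobin, was low in 2C2R on slide 2, at -1.06 against -0.88. Snx15 was low in 8T2R on slide 2, at -7.09 against -6.54. Tssk3 was low in 6C1R on slide 2, at -5.69 against -5.38. The median local background was 34.5 units in 8T2R on slide 2, against 34.0 in the other 4 arrays of that slide.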

How the results depend on the processing

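The 2143 slide calls stayed within 1.5 times under the other background correction, quantile, median and cyclic loess scaling, both filters, kept flags, trended variance, row, both position fits, the authors' values and without the C or T term. They were 425 without scaling, 732 with spike-in scaling, 4404 with array weights, 782 with the sire digit as a term, 528 with digit 1 only, 336 in C arrays, 1092 in T arrays, 1078 with the spike-in level as a term and 426 with 1 probe per gene, the last over fewer probes. Leaving out 1 array gave 1277 (without 2C2R) to 2753 (without 5C1R), with 1334 without 2T1R and 1410 without 4T1R. The spike-in and position terms were added after seeing the data. Interaction calls were 0, 8 with spike-in scaling and 0 to 2 without 1 array. Spike-in scaling, with a median difference of 0.52 over all probes, turned 21 of 49 named genes: Acta2 0.19, Car9 0.17, Cd3d 0.10, Cdkn1a 0.0083, Chrna1 0.24, Eif3h 0.28, Eno2 0.0597, Gstm4 0.17, Mb 0.0562, Mrpl21 0.36, Mrps34 0.35, Npas2 0.0923, Plk1 0.29, Prm1 0.0495, Rpl7a 0.15, Rpsa 0.17, Sdhc 0.31, Sec61b 0.29, Socs3 0.0813, Th 0.0034 and Usp2 0.12. All 49 kept their direction in each other setting in which they were tested, which their choice as called genes partly fixed in advance. For those without overlap between the slides, fits on fewer arrays could not turn it. Other called genes named here were not followed. List medians moved beyond the spread between arrays in 118 of 629 refits, 116 of them by scaling or background. The causes were not tested. Replicate numbers, given in accession order, paired no arrays. Dim probes near background and 5 arrays a slide limit what can be called.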
